A study of Homo sapiens with 6 samples.

Results

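A joined model is an assembled transcript that shares splice junctions with an annotated transcript but not its whole order of introns. Models of 3 or more runs are joined models whose introns need at least 3 runs from annotated transcripts of the same locus. Introns were read from one end, and a switch is the passage from 1 run to the next. A run is a stretch of consecutive introns that 1 annotated transcript holds, and each run was made as long as possible. On chromosomes 1 to 22 and X, 393 of 4907 joined models met this rule (8.01% of them), and they lay in 247 genes. The members were selected on the intron chains themselves, so the number of runs and what follows directly from it are descriptions of the choice.

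The models come from 6 libraries of EndoC βH1, an established human pancreatic beta cell line that makes and secretes insulin. All 6 carried a viral construct for a doxycycline-inducible short hairpin RNA against the promoter of the insulin gene, INS. The 3 INS-KD libraries had 7 days of doxycycline at 1 mg/mL, and the 3 Negative Control libraries had no doxycycline. No library had doxycycline without the hairpin, so the drug and the hairpin cannot be told apart. The deposited file is a single assembly merged over the libraries, and 0 of its 555595 exon lines has a score. It gives no level for any library or group, so depth is unknown, markers of the cell line could not be checked, and INS-KD was not compared with Negative Control. The file holds 55083 models, of which 49753 are RefSeq transcripts placed there as references, and it does not say which of them had reads.

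Most human genes with several exons yield more than 1 transcript. A cassette exon is kept or left out, a donor or acceptor splice site is moved by some bases, or a different first or last exon is used. In some genes a pair of neighbouring exons of the same length encode alternate versions of 1 stretch of protein, and the ion channel genes of excitable cells, beta cells included, are known for such pairs. A short-read assembler sees each of these choices through fragments much shorter than a long transcript, and joins choices that lie far apart by rules of its own.

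Alternate exon pairs of equal length are printed first, because they show what a switch between annotated transcripts changes in the message. All sequences are from GRCh37, which is the hg19 build of the deposited coordinates, and are written 5′ to 3′ on the strand of the gene. Capitals mark the bases at which the exons of a pair differ. CACNA1C, on the plus strand of chromosome 12, encodes the pore of the Cav1.2 L-type calcium channel and holds 3 such pairs. Their coordinates are chr12:2613602-2613705 and chr12:2614008-2614111 for the 104-base pair, chr12:2706396-2706455 and chr12:2706603-2706662 for the 60-base pair, and chr12:2742795-2742878 and chr12:2743463-2743546 for the 84-base pair.
CACNA1C 104-base pair, upstream exon: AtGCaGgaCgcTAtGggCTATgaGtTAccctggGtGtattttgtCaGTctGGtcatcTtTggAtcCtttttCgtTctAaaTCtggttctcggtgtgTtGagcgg
CACNA1C 104-base pair, downstream exon: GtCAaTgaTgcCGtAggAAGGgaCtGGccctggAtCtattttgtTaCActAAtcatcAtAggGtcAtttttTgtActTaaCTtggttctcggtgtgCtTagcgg
CACNA1C 60-base pair, upstream exon: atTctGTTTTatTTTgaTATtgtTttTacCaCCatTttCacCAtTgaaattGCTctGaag
CACNA1C 60-base pair, downstream exon: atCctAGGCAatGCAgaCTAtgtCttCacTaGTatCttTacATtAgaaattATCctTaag
CACNA1C 84-base pair, upstream exon: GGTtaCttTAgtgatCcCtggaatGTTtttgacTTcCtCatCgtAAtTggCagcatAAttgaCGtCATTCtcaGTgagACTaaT
CACNA1C 84-base pair, downstream exon: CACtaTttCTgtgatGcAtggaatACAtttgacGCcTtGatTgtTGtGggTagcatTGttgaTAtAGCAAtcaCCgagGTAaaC
The exons differ at 33 bases in the 104-base pair, at 26 in the 60-base pair and at 35 in the 84-base pair.

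Such a pair also lay at the end of an absent stretch in 2 further genes of the beta cell lists. A 73-base pair in TCF7L2 did not, and is not printed. PKM encodes pyruvate kinase, the last enzyme of glycolysis, and its alternate exons (minus strand, chr15:72495363-72495529 upstream and chr15:72494795-72494961 downstream) distinguish the M1 and M2 forms. CACNA1A encodes the pore of the P/Q-type calcium channel (minus strand, chr19:13339513-13339609 upstream and chr19:13338245-13338341 downstream).
PKM upstream exon: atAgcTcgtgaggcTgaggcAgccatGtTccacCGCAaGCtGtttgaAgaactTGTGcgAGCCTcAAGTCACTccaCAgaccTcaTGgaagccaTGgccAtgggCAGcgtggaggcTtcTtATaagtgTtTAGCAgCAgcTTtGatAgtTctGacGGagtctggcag
PKM downstream exon: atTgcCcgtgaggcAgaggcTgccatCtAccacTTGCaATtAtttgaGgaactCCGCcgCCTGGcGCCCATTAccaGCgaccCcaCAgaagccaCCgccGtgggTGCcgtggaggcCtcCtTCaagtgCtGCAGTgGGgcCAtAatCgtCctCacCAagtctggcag
CACNA1A upstream exon: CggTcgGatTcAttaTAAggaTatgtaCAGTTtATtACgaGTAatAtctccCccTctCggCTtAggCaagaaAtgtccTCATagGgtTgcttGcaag
CACNA1A downstream exon: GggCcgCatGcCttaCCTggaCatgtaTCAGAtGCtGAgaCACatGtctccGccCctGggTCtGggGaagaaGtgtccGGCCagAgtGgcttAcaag
The PKM exons are 167 bases long and share 62.9% of them, and the CACNA1A exons are 97 bases long and share 61.9%.

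Some of the choices combined by the members are shifts of a splice site by 1 codon. The windows below hold such tandem acceptors, the last bases of an intron followed by the exon, and capitals mark the 3 bases that are exon in 1 transcript and intron in another. They are shown for WDR4, whose 6 members all join at this site, for TCF4, whose 3 members all do, and for the scaffold gene MAGI1. The windows are chr21:44274722-44274749, chr18:53018220-53018247 and chr3:65361609-65361636, all on the minus strand.
WDR4 tandem acceptor: cttctccttttagAAGtttgccgcgtcc
TCF4 tandem acceptor: tttaaccttttagCAGagtctccttgga
MAGI1 tandem acceptor: ctcaatatcaaagCAGgcaatgcatgtg
In all 3, AG stands at the end of the capitals and just before them, so that either acceptor reads AG.

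Of the 393 models, 363 had 3 runs, 29 had 4 and 1 had 5. Just outside the rule lay 4208 joined models of 2 runs, in 2443 genes. A further 297 joined models were 1 run, and 9 could not be cut because an intron was in no reference of the locus. The working description of these models as combinations of 3 or more transcripts did not hold for all of them. The fewest distinct references whose introns together made up the chain was 4 for 12 models, 3 for 237, 2 for 142 and 1 for 2. Thus 144 of 393 (36.6%) needed fewer than 3 transcripts, because 1 transcript can supply separate parts of a chain. In 145 models 1 reference could supply 2 runs that were not next to each other.

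**Figure D1:**
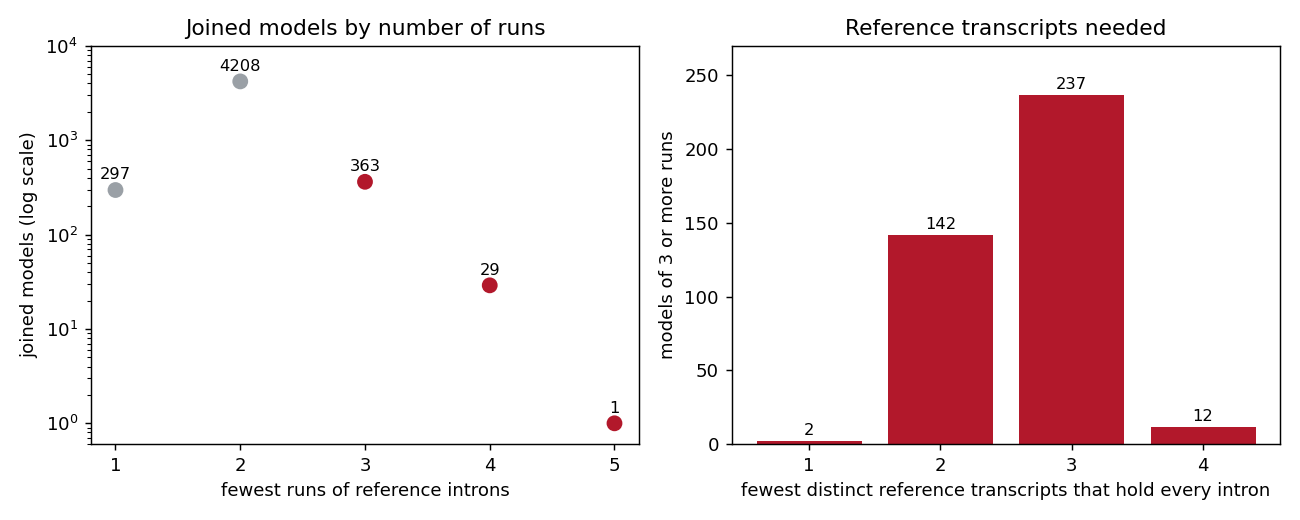
Left, number of joined models (log scale) by the fewest runs of reference introns, with models of 3 or more runs in red and the others in grey. Right, number of models of 3 or more runs by the fewest distinct reference transcripts that hold all their introns. The 2-run models number 4208, against 363 models of 3 runs, 29 of 4 and 1 of 5, and 237 members need 3 references.

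Members were long transcripts. Their median was 19 exons, 4178 spliced bases and a genomic span of 88106 bases, against 12 exons, 3193 spliced bases and 48070 bases for 2-run models. Their loci held a median of 5 references, against 4 for the loci of 2-run models. A longer chain with more references offers more places to switch, and the share of these differences that comes from the rule was not tested. The member with the most exons, 362, belonged to TTN, which encodes the sarcomere protein titin, and ran over 108647 spliced bases. ANKS1B, an ankyrin repeat scaffold gene, had the widest span, 1240681 bases. At the other end, both members of GATA3-AS1, the antisense neighbour of the transcription factor gene GATA3, had 4 exons, and each of their 3 introns came from a different run.

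In a model of 3 runs the middle run had a median of 6 introns, the first 5 and the last 3. The last run was a single intron in 110 of 363 models (30.3%), the first in 38 (10.5%) and the middle in 31 (8.54%). The middle run could come from only 1 reference in 322 of 363 (88.7%). The first could in 317 (87.3%) and the last in 245 (67.5%).

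What makes a member absent from the annotation can be narrowed to its absent stretches, the shortest strings of consecutive introns that no single reference of the locus holds. The 393 members had 825 of them, 691 once repeats within a locus were removed, and 356 members had exactly 2. The median stretch put 642 spliced bases between its first and last junction (quartiles 424 and 1167), and the median in 2-run models was 688. Of the 691 distinct stretches, 452 (65.4%) were over 500 bases and 215 (31.1%) over 1000, and 101 consisted of 2 introns. The corresponding shares in 2-run models were 64.8% and 33.4%. The stretches of members were thus about as long as those of 2-run models, and a member differed in holding more of them. The read or fragment length behind a join is not given in the sources used here, so whether a fragment spanned it was not tested.

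Each end of a stretch is a choice at which the member and the reference part. Cassette exons were the most frequent choice: 327 of 393 members (83.2%) had one at a stretch end, against 2748 of 4208 2-run models (65.3%). Donor or acceptor shifts were present in 232 members (59.0%), against 39.7% of 2-run models. An alternative start was present in 160 (40.7%), against 41.4%, and an alternative end in 90 (22.9%), against 17.8%. An intron kept or removed was present in 73 (18.6%), against 8.91%. Members have at least 2 stretches and most 2-run models have 1, so members have more ends at which any kind can occur, and the part of this in the shares was not tested. In 189 members (48.1%) neither a start nor an end was involved, so that the whole combination lay inside the transcript, against 48.4% of 2-run models. Most members mixed kinds: 200 combined 2 kinds, 133 combined 3 and 17 combined 4.

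**Figure D2:**
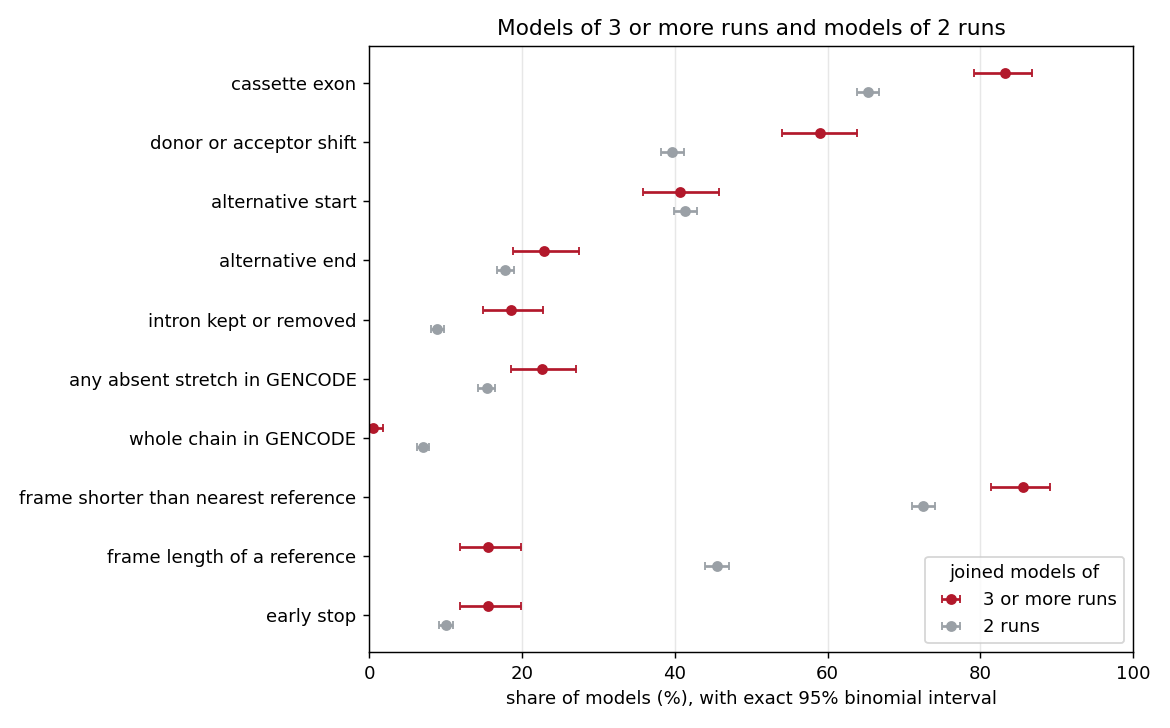
Share of models (%, points) with exact 95% binomial intervals (bars, counting error only) for models of 3 or more runs in red and models of 2 runs in grey. Cassette exons reach 83.2% of members and 65.3% of 2-run models, and whole chains in GENCODE reach 0.509% and 7.06%.

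The cassette exons at stretch ends numbered 488 and had a median length of 102 bases. Their length was a multiple of 3 in 61.3%, against 55.6% of the 2619 cassettes of 2-run models. Of all 5982 inner exons of references at the members' loci, 47.1% were a multiple of 3. Acceptor shifts numbered 149, with a median of 15 bases, and 66.4% were a multiple of 3. Exactly 3 bases was by far the most common acceptor shift, with 41 of 149 (27.5%), against 208 of 882 (23.6%) in 2-run models. At 40 of these 41 sites both acceptors read AG, as in the tandem acceptors printed above, and the site in CACNA1A did not. The letters were CAGCAG at 16 of the 41 sites (39.0%) and TAGCAG at 10 (24.4%), against 44.7% and 20.7% of the 208 sites of 2-run models. Donor shifts numbered 102, and 7 of them (6.86%) were of 3 bases, against 1.37% of 656 in 2-run models. Every intron began with GT and ended with AG in 290 of 393 members (73.8%), against 84.5% of 2-run models, which have fewer introns. Whether the smallest shifts, such as the 1-base shift in CACNA1A, are splice choices or differences in how references were placed was not tested.

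**Figure D3:**
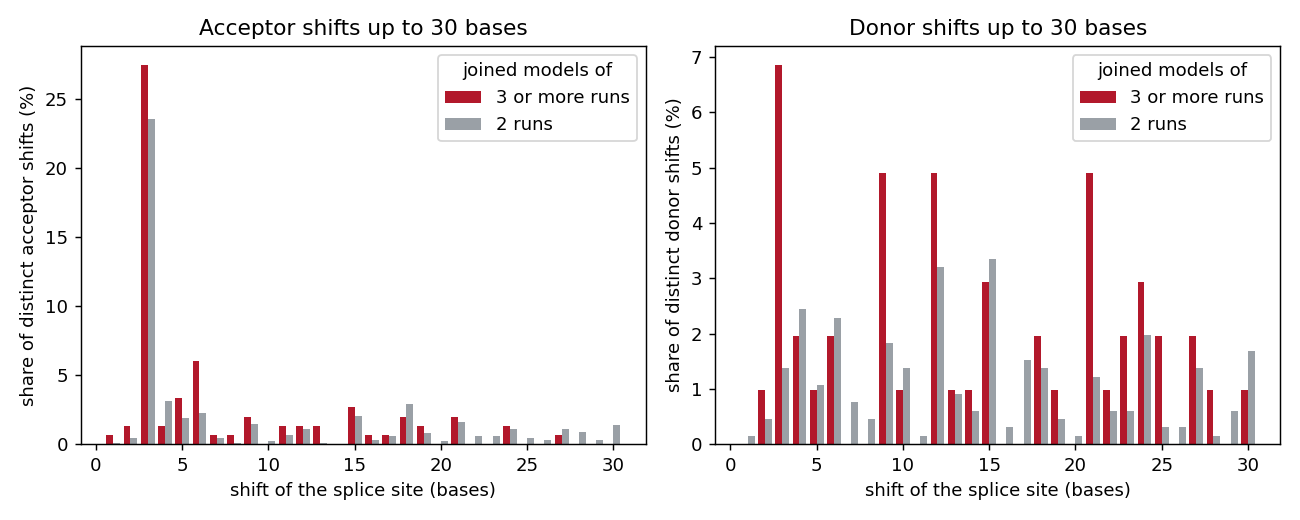
Share of distinct acceptor (left) and donor (right) shifts by their size, 1 to 30 bases, at the ends of absent stretches in models of 3 or more runs (red) and of 2 runs (grey). The 3-base acceptor shift stands above all other sizes, at 27.5% and 23.6%.

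Many members shared a gene. Of the 247 genes, 173 had 1 member and 74 had more than 1, and those 74 held 220 of the 393 models. PLEKHG5 had 11, CACNA1G and NDRG2 had 7 each, CACNA1C and WDR4 had 6 each, and FOXP1, MYBPC1, PDE4DIP, RAD51D, SNAP91, SORBS2, TSNAX-DISC1 and TTLL3 had 5 each. Members of 1 gene shared parts. In 37 of the 74 genes every member held the same absent stretch, and in 61 of 74 (82.4%) every member drew a run that only 1 reference could supply, the same reference for all. The members of a gene are therefore not independent of each other. Also, 195 of the 247 genes had a 2-run model too.

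**Figure D4:**
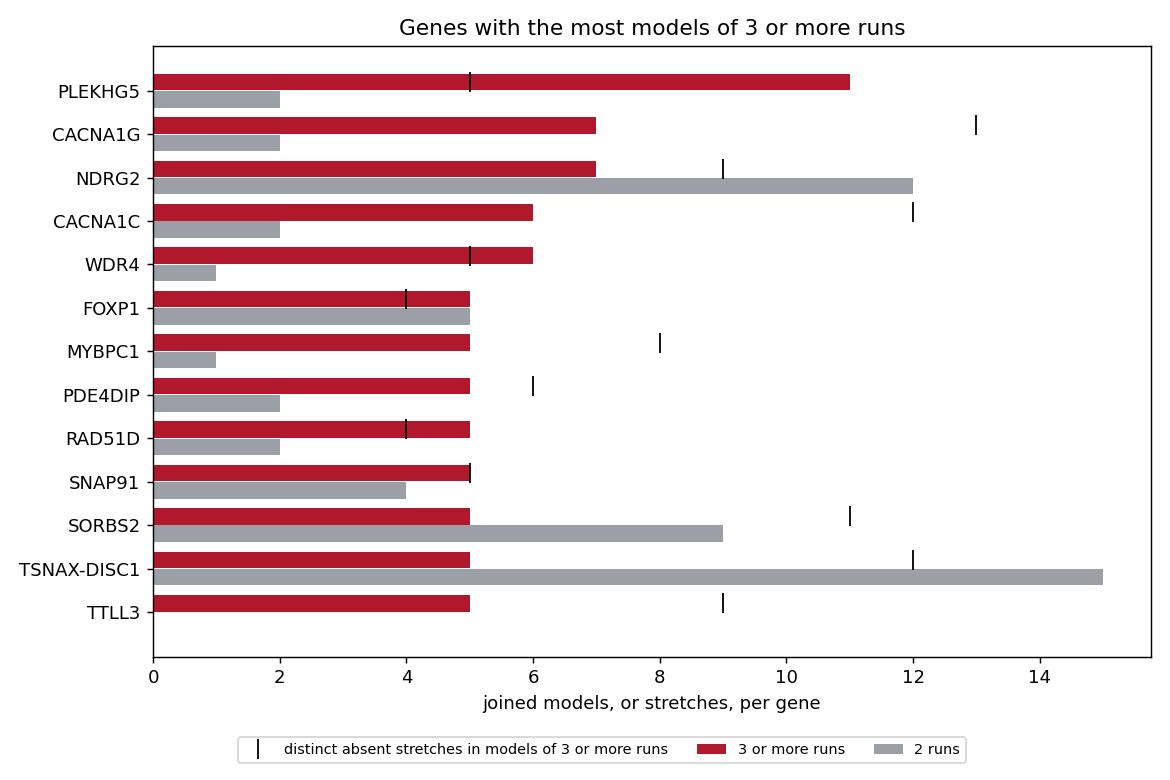
Joined models per gene in the 13 genes with 5 or more models of 3 or more runs (red bars), with the number of 2-run models (grey bars) and of distinct absent stretches in the models of 3 or more runs (black ticks). PLEKHG5 has 11 models built from 5 distinct stretches, and CACNA1G has 7 models with 13.

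PLEKHG5, which encodes a guanine nucleotide exchange factor, had the most members. All 11 took their middle run, 2 introns long, from the same reference. Before it came PLEKHG5 transcripts with different starts, and after it introns of TNFRSF25, the neighbouring death receptor gene on chromosome 1. The 11 models had only 5 distinct absent stretches. Every one of the 11 had an early stop, meaning that the stop codon of the longest frame lay over 50 bases before the last junction. Their frames were 930 to 1009 codons, against 1083 in the nearest reference. The last junction of each model lay in its TNFRSF25 part, so a frame that ends in the PLEKHG5 part counts as an early stop. The frames of 930 codons had the length of a PLEKHG5 reference frame.

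Runs that shared no gene name were found in 46 members (11.7%), against 265 2-run models (6.30%). The names can be those of a read-through and 1 of its genes, or closely related names such as MAGED4B and MAGED4. The count is therefore not one of joins between separate genes. They were in 20 genes. RAD51D, a DNA repair gene, had 5 members that ran from RAD51D through 1 intron of the annotated read-through RAD51L3-RFFL into RFFL. None of these 5 had an early stop. The 5 members of TSNAX-DISC1 switched between the read-through and DISC1, a brain scaffold gene, and 3 of the 5 had an early stop. In C1QTNF3-AMACR all 3 members passed from C1QTNF3 through the annotated read-through to AMACR, and 2 of them had an early stop. TTLL3, a tubulin ligase gene, had 3 such members of 5, with runs from ARPC4, ARPC4-TTLL3 and TTLL3. Of all 5 TTLL3 members, 4 had an early stop.

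Genes chosen for their role in beta cells held 25 members in 12 of 194 genes with several exons (6.19%). Over all 21400 gene names with a multi-exon reference the share was 1.15%. Every member lay at a locus with at least 2 references. On that footing the shares were 12 of 128 (9.38%), against 2.55% of 9668 gene names. The lists were drawn up with earlier results of these data known, and length and number of references were not matched, so nothing is read from the difference. By list, members were in 4 of 30 ion channel and pump genes, 3 of 19 exocytosis genes, 2 of 21 granule and hormone processing genes, 3 of 39 diabetes susceptibility genes, 1 of 22 islet transcription factors and 1 of 25 fuel metabolism genes. The 24 incretin and receptor signalling genes and the 22 endoplasmic reticulum stress genes had none.

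Voltage-gated calcium channels let in the calcium that triggers insulin release, and 14 of these 25 members were in 3 of their genes. CACNA1G, encoding the T-type channel Cav3.1, has 33 references at its locus and gave the only model of 5 runs. Its runs were 23, 4, 3, 5 and 1 introns long and needed 4 distinct references. In order along the gene, it left out a 69-base cassette exon, changed several sites at once, left out a 54-base exon, moved a donor by 21 bases, took in cassette exons of 144 and 135 bases and removed an intron of 237 bases. All of the lengths given are multiples of 3. Its longest frame was 2223 codons, against 2377 in the nearest reference. The other 6 members had 3 or 4 runs and frames of 1719 to 2329 codons, and 1 of them had an early stop. The 69-base exon was left out at a stretch end in 6 of the 7, and a 21-base donor shift was at a stretch end in the same 6. Donor shifts of 21 bases lay at stretch ends of this gene both at chr17:48685381-48685401 and at chr17:48695270-48695290.

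**Figure D5:**
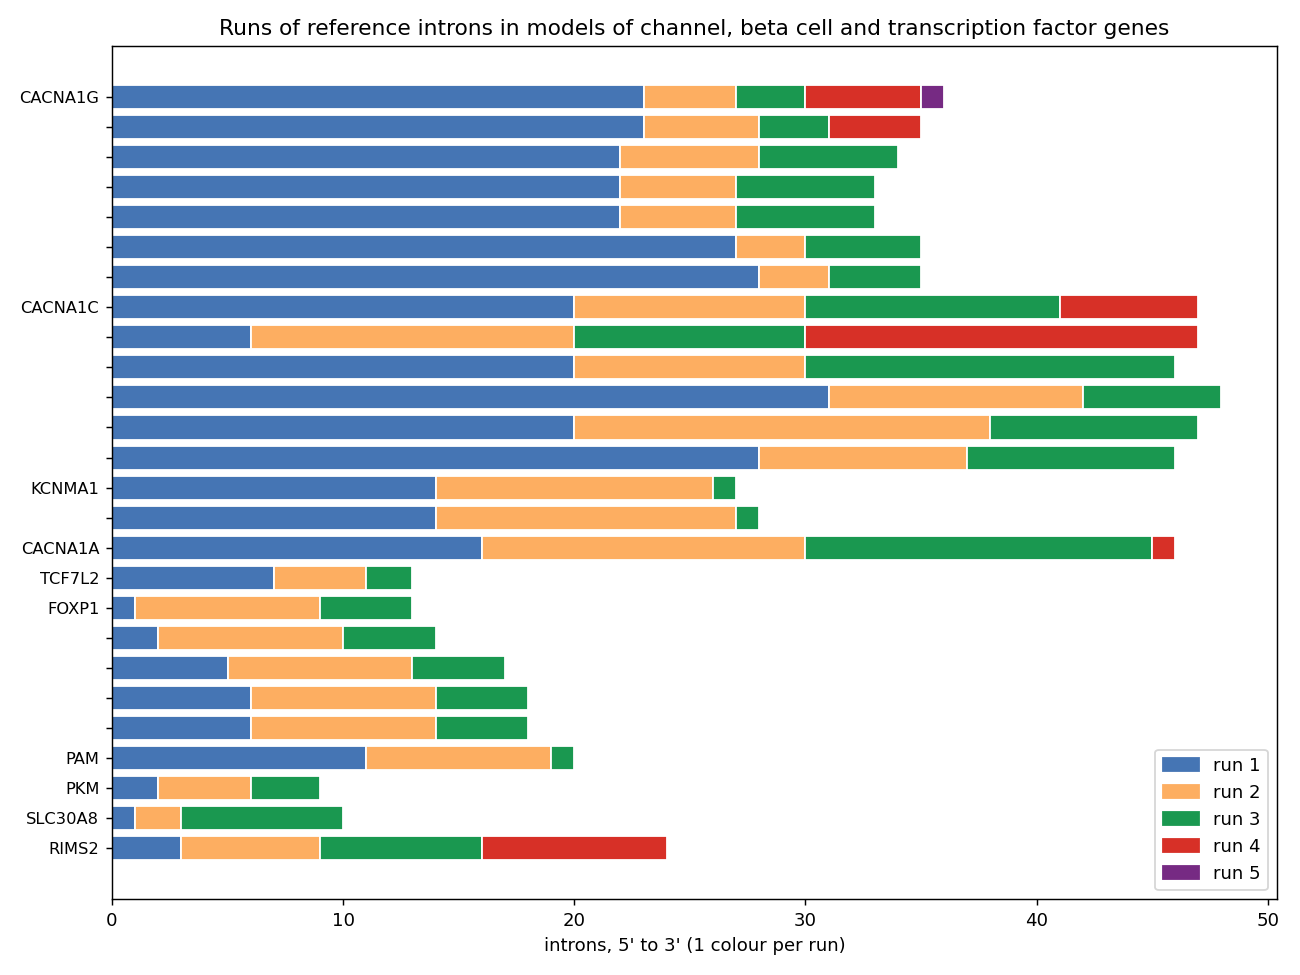
Models of 3 or more runs in 10 genes, 1 bar each, with length in introns from the 5′ end and 1 colour per run. The top bar is the CACNA1G model with runs of 23, 4, 3, 5 and 1 introns, and the 5 FOXP1 models have a second run of 8 introns and a last run of 4.

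CACNA1C had 6 members among 23 references, with 47 to 49 exons and 3 or 4 runs. The alternate exon pairs printed above were at stretch ends in them. For the 104-base pair, 2 members held the upstream exon and 4 the downstream one, and none held both, against 4, 19 and 0 references. For the 60-base pair, 5 members held both exons and 1 held only the downstream one, against 3 references with both, 12 with the upstream and 8 with the downstream exon only. For the 84-base pair, 1 member held the upstream exon, 2 the downstream one, 1 both and 2 neither, against 6, 12 and 4 references with the upstream, the downstream and both. Holding both exons of the 60-base pair was thus the most frequent state in these 6 members and the least frequent in the 23 references. This contrast comes from 6 models of 1 gene, which are not independent, and was not seen for the 84-base pair. The members were also selected for chains that no single reference holds, and this pair lay at a stretch end. Nothing is therefore read from the contrast. Other choices combined in these models were acceptor shifts of 9, 57 and 66 bases and cassette exons of 213 and 105 bases. The longest frames were 2161 to 2234 codons, against 2221 in the nearest reference, and none of the 6 had an early stop.

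CACNA1A had 1 member, of 47 exons and 4 runs (16, 14, 15 and 1 introns). It joined a 3-base acceptor shift, a 9-base donor shift, an acceptor shift of 1 base, the upstream exon of its alternate pair and an acceptor shift of 5 bases. Of the 5 references, 1 holds the upstream exon and 4 the downstream one. Its frame of 2509 codons was longer than the longest of any CACNA1A reference, 2506. KCNMA1, encoding the calcium-activated BK potassium channel, had 2 members of 28 and 29 exons. Both left out exons of 162 and 12 bases at the ends of a stretch of 618165 genomic bases, a stretch that a GENCODE transcript also holds.

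Of the genes of the secretory granule, SLC30A8 encodes the zinc transporter that loads insulin granules. Its member had runs of 1, 2 and 7 introns from 3 references. The joins lay close to the start, with 101 and 119 spliced bases in the 2 stretches, and the frame of 369 codons was the longest of the references as well. PAM, which amidates peptide hormones, had runs of 11, 8 and 1 introns. It left out cassette exons of 58, 321 and 204 bases, and its frame of 683 codons compares with 974 in the nearest reference. Among exocytosis genes, RIMS2, an active zone scaffold, had 1 member of 4 runs with a frame of 1418 codons, longer than the 1349 of any reference. CADPS2, a priming factor for dense-core granules, had 1 member with runs of 15, 7 and 7 introns that left its first reference and returned to it. ERC1, another active zone protein, had members of 3 and 4 runs, and 2 references were enough for each.

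In fuel metabolism, the member of PKM had runs of 2, 4 and 3 introns from 2 references. It held the upstream exon of the pair printed above, as do 4 of 7 references, and its frame was 462 codons, against 605. ANK1, encoding ankyrin 1, a diabetes locus and a cytoskeletal adaptor, had 1 member of 44 exons, and GENCODE transcripts hold both of its stretches. TCF7L2, a Wnt effector whose locus carries common risk for type 2 diabetes, had 1 member of 14 exons with runs of 7, 4 and 2 introns. The 3 choices it combined are printed next, because all are short and lie within 1 message. They are a 69-base cassette exon taken in (chr10:114724305-114724393), a 15-base acceptor shift (chr10:114910732-114910766) and a 51-base cassette exon left out (chr10:114918416-114918486), all on the plus strand. Capitals mark the exon or the shifted bases, with 10 bases on each side.
TCF7L2 cassette exon taken in: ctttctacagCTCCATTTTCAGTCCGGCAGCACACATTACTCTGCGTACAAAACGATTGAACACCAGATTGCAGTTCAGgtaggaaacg
TCF7L2 acceptor shift: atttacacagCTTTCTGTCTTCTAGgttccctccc
TCF7L2 cassette exon left out: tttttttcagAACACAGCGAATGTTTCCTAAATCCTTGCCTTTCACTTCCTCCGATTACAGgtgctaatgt
The length of each is a multiple of 3, and the longest frame of the member, 607 codons, exceeded the longest of any reference, 602. Its introns could be covered by 2 references.

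Among other transcription factors, FOXP1 had 5 members. All had the same last stretch: the second run came from a single reference that leaves out a 90-base exon, and the last run from a reference that leaves out a 122-base exon, with 8 exons between. They differed in their starts, which gave first runs of 1, 2, 5, 6 and 6 introns. Their frames were 617 to 619 codons, against 676 in the nearest reference. The 3 members of NR3C1, the glucocorticoid receptor gene, joined a start, a 3-base donor shift and a 2630-base acceptor shift. The 3-base donor adds 1 codon, the known difference of the gamma form, and the distal acceptor is the kind of change that makes the beta form. The donor (chr5:142693554-142693576, minus strand) is printed because no single reference holds the stretch from it to the distal acceptor, and capitals mark the 3 bases.
NR3C1 donor shift: gcagtggaagGTAgtgtgtgttt
All 3 NR3C1 members had 9 exons and a frame of 743 codons, against 777 in the nearest reference. TCF4, a basic helix-loop-helix factor gene, had 3 members that all held the same 2 stretches. The tandem acceptor printed above and a 12-base donor shift were at their ends. GENCODE transcripts hold both stretches of each TCF4 member, but none holds the whole chain. LEF1, another Wnt effector, had 1 member.

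NDRG2, a stress-responsive gene, had 7 members from 15 references with 9 distinct stretches. A 17-base acceptor shift was at a stretch end in 4 of them and a 33-base donor shift in 6. The frames were 295 to 348 codons, against 371 in the nearest reference. WDR4, whose protein takes part in tRNA methylation, had 6 members from 7 references. All had 12 exons, a frame of 265 codons and the stretch that joins the tandem acceptor to a last run of 1 intron. SNAP91, an endocytic adaptor gene of neurons, had 5 members that all held a 6-base donor shift followed by an 84-base cassette exon. From the downstream donor of this shift the intron begins with AT, not GT. Whether it is a splice choice or a difference in how references were placed was not tested. MYBPC1, a myosin-binding gene, had 5 members that all left out a 57-base exon. SORBS2, an actin adaptor gene, had 5 members with 11 distinct stretches and frames of 573 to 1414 codons. PDE4DIP, which encodes a centrosome and Golgi anchor of phosphodiesterase, had 5 members of 40 to 47 exons. A 330-base donor shift joined to a 186-base cassette exon was in 4 of them, and 2 had frames of 2389 and 2415 codons, above the 2362 of the longest reference.

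EPB41L1, EPB41L2 and EPB41L3, which encode proteins that tie membrane proteins to spectrin and actin, had 1 member each, as did CALD1 (caldesmon) and TPM3 (tropomyosin 3). In EPB41L1 a 191-base exon taken in was joined over 1272 spliced bases to the loss of a 36-base exon. In EPB41L2 a start was joined over 1847 bases to a 63-base exon. CALD1 joined a 687-base donor shift to a tandem acceptor, with a frame of 786 codons, against 793 in its nearest reference. Both members of MAGI1, a junction scaffold gene, left out an 84-base exon and used the acceptor printed above. Their frames were 1260 and 1463 codons, against 1287 in the nearest reference and 1462 in the longest. DLG1, a scaffold gene of cell junctions, joined a start, the loss of a 99-base exon and a 3-base acceptor shift, and GENCODE transcripts hold both of its stretches. DLG2, a synaptic scaffold gene, had a frame of 801 codons, against 975, and ROBO1, an axon guidance receptor gene, 1654, against 1651. CASP8, the initiator caspase gene, had 1 member with a frame of 294 codons, against 496. CELF5, an RNA-binding protein gene, had 1 member with a frame of 295 codons, against 485, and an early stop. By list, the cytoskeleton and adaptor genes had members in 7 of 38 genes, adhesion and neural surface genes in 4 of 29, transcription and chromatin factors in 4 of 39, splicing factors in 1 of 35 and apoptosis and immune receptor genes in 1 of 24. The 31 kinase and phosphatase genes and the 20 housekeeping genes had none. The shares over all gene names were 1.15%, and 2.55% at loci with at least 2 references. These lists too were drawn up with earlier results known, and nothing is read from their counts.

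GENCODE release 44, lifted to GRCh37, was used as an annotation that the rule had not used. The whole intron chain of a GENCODE transcript was found in 2 of 393 members (0.509%, exact 95% interval 0.0617% to 1.83%), against 297 of 4208 2-run models (7.06%, 6.30% to 7.87%). The 2 members were in DCTN1, a subunit gene of the dynactin motor complex, and UBAP2. Of single absent stretches, 101 of 691 distinct stretches of members (14.6%) and 583 of 3926 of 2-run models (14.8%) were in a GENCODE transcript, so the shares for stretches were close where those for whole chains were not. All stretches were in GENCODE in 21 members (5.34%) and in 15.2% of 2-run models. At least 1 was in 89 members (22.6%) and in 15.4% of 2-run models. Members hold at least 2 stretches and most 2-run models hold 1, and a whole chain contains every stretch. These shares and those of whole chains are therefore not on the same footing, and the part of the rule in them was not tested. In the 195 genes with both kinds of model, 2 of 326 members (0.613%) and 16 of 452 2-run models (3.54%) had a GENCODE chain. The intervals cover counting error only, and models of 1 gene are not independent.

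Of the 691 distinct stretches, 116 (16.8%) were also present in a 2-run model of the locus. At least 1 stretch was present in such a model for 165 members (42.0%), and every stretch was for 13 (3.31%). From the reference exons and introns of a member's locus, a median of 24 whole chains could be written, references included. The largest number was 3840. For CACNA1C it was 720, for CACNA1G 672 and for SORBS2 1808, against 6, 7 and 5 members.

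Reading frames were compared for the 340 members whose nearest reference, as the file names it, is protein coding. The reference so named is often not the most similar one. In 220 of all 393 members (56.0%) another reference of the locus shared more introns, against 49.5% of 2-run models. It could supply a run in 273 members (69.5%), against 60.1% of 2-run models. A frame shorter than in the nearest reference is therefore not always a loss against the most similar transcript. The longest frame from ATG to a stop was shorter than in that reference in 291 members (85.6%), equal in 8 (2.35%) and longer in 41 (12.1%). In 3701 2-run models the shares were 72.5%, 12.3% and 15.2%. The frame had the length of some reference frame of the gene in 53 members (15.6%), against 45.5% of 2-run models. It was longer than that of every reference in 23 (6.76%), against 5.78%. The median frame was 91.9% of that of the nearest reference, against 92.5% in 2-run models. An early stop was found in 53 of 340 members (15.6%, exact 95% interval 11.9% to 19.9%), against 371 of 3701 2-run models (10.0%) and 6 of the members' 340 nearest references. The 11 PLEKHG5 models were among the 53. Where a model runs on into a second gene, an unchanged upstream frame can also count as an early stop. At loci of 1 gene name the shares were 29 of 295 (9.83%), against 8.42%. In genes with both kinds of model, 14.2% of 281 members and 12.3% of 382 2-run models had one. The share depended on where the frame began. With the ATG of the nearest reference as the start, 78 of the 251 members that hold it (31.1%) had an early stop, against 23.8% of 2957 2-run models. No protein product was measured.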

How the data were processed

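RNA of 6 EndoC βH1 libraries, 3 INS-KD and 3 Negative Control, was sequenced after low-input full-length cDNA synthesis, per the labels' protocols. TopHat2, Cufflinks and the hg19 build are named, with no versions or settings, per the submitters' processing notes. The authors deposited 1 merged assembly, whose tags are those of Cuffmerge and Cuffcompare, per the file headers. Its only numeric values are exon start and end positions, counted from 1, and 0 columns hold values of a single library. Depth is therefore unknown, no groups were compared and no test was run.

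Each model's introns were cut from its 5′ side as the rule describes: class_code j models, references of class_code = with NM_ or NR_ names and the same gene_id, chromosomes 1 to 22 and X. Reading frames were the longest from ATG to a stop on the spliced genome sequence, and an early stop lay over 50 bases before the last junction. Splice sites, exons and frames were read from GRCh37, and GENCODE release 44 lifted to that build was the annotation that the rule had not used. Exact 95% Clopper-Pearson intervals cover counting error only. Steps were tested on simulated chains. Python 3.11.15, pandas 2.3.3, scipy 1.17.1 and pysam 0.24.0 were used.

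Genes were named by rule: any gene with a model of 5 runs, the 10 genes with the most members and ties, every member gene of the beta cell lists, up to 4 genes of each other list, and the genes of the extreme models. Some named items are not reported here. DCTN1, UBAP2, GATA3 and genes joined through read-through were named after their values were seen, as were EPB41L3 and TPM3. The members and the gene lists were chosen with earlier results of these data known.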

Additional observations from a re-analysis of the deposited data

How the results depend on the processing

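Among the alternatives tried, 346 of the 393 members were found again when references had to share the gene name, 282 with NM_ references only, and all 393 when chains were cut from the right. NM_ references alone gave 292 members in 189 genes, and the whole file, unplaced sequences included, gave 429 in 248. Asking for 4 or more runs left 30 members in 23 genes. The median distance between the first and last switch depended on the cut: 918 spliced bases from the left, 685 from the right and 188 at the least over all cuts. The share of shorter frames was 90.9% against the longest frame of any reference of the gene, and 85.6% against the nearest. Early stops were found in 15.6%, in 31.1% of the 251 members that hold the ATG of the nearest reference when that ATG was used, and in 9.83% at loci of 1 gene name, an alternative chosen after seeing the data. The share that need 3 or more references was 61.6% to 65.6%, against 63.4%. No library was left out, since the file holds no value of a single library. No paired analysis was possible because the assembly pools all libraries and no result comes from a test. Without read counts, no model can be graded by the reads behind it.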
